A study of Mus musculus with 10 samples.

Results

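The 8 Pax genes other than Pax6 were examined: Pax1, Pax2, Pax3, Pax4, Pax5, Pax7, Pax8 and Pax9. They were chosen by name from 21887 protein-coding genes of the mouse gene table, and all 8 were found in it. Histone modifications were mapped by chromatin immunoprecipitation and sequencing (ChIP-seq) in Glast+ retinal cells of the C57BL/6 strain, taken at postnatal day 28, with no treatment and no altered genotype named. Glast, the glutamate transporter encoded by Slc1a3, is used to isolate Müller glia, which span the retina and support its neurons. Each of H3K4me3, H3K4me1, H3K27me3 and H3K9me3 was profiled in 2 experiments, Exp1 and Exp2. The deposited data are lists of enriched regions, called islands, with 1 list per library. The labels do not say which animals or how many entered an experiment, and differences between Exp1 and Exp2 may be technical in part.

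Pax genes encode transcription factors that bind DNA through a paired domain and set the identity of organ primordia in the embryo. Related pairs and trios work in the same tissues: Pax1 and Pax9 in the vertebral column and pharyngeal pouches, Pax3 and Pax7 in neural crest and muscle progenitors, Pax2, Pax5 and Pax8 in the kidney, thyroid, midbrain-hindbrain boundary and B cells, and Pax4 with Pax6 in the pancreas. In the eye, Pax6 is required for the retina and lens, and Pax2 marks the optic stalk and later the astrocytes of the optic nerve and retina. H3K4me3 is found at active promoters and H3K4me1 at enhancers and around promoters. H3K27me3 is deposited by Polycomb complexes, which hold developmental genes silent, and H3K9me3 marks heterochromatin.

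The lists held 16761 H3K4me3 islands in Exp1 and 20169 in Exp2, 52342 and 37200 H3K4me1 islands, 7743 and 4105 H3K27me3 islands, and 9690 and 5621 H3K9me3 islands. Island widths were whole multiples of 200 bp for the H3K4 marks, 3000 bp for H3K9me3 and 5000 bp for H3K27me3, so the marks were called at different resolution. Read counts are not in the lists, so the depth behind each island is unknown. Islands come from many cells, and fewer cells with a mark cannot be told apart from less of it per cell. Of 10 Müller glia marker genes, 9 carried H3K4me3 at a gene end in both experiments, against 58.6% of all protein-coding genes. So did 7 of 10 rod genes, 3 of 8 endothelial genes and 0 of 8 microglia genes. Among the microglia genes, Csf1r, C1qa and C1qb had H3K4me3 in Exp2 alone, as had the endothelial gene Cldn5. The part that rods and other cells play in the islands over Pax genes was not tested.

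No H3K4me3 island lay at an end of any of the 8 Pax genes, and H3K27me3 islands covered most of them. A gene was called marked where an island overlapped the same annotated end, taken with 1 kb either side, in both experiments. By this rule H3K4me3 was at 0 of the 8 genes, against 58.6% of all protein-coding genes, and it was also at 0 in either experiment, against 61.5%. H3K27me3 was at 6 of 8, against 23.3%, and the exceptions were Pax4 and Pax8. In either experiment it was at 7 of 8, against 33.0%, Pax8 being marked in Exp1 alone. Of the 6 genes marked in both experiments, 5 (Pax1, Pax2, Pax3, Pax7 and Pax9) lay wholly inside an H3K27me3 island in both experiments, a state found over 17.7% of all genes, and Pax5 was covered in part. Nearby enriched stretches are joined in these islands, and the smallest gap between H3K27me3 islands was 35000 bp. A gene, start or neighbouring gene inside one thus need not be enriched throughout. H3K4me1 was at 4 of 8 (Pax2, Pax3, Pax5 and Pax8), against 54.6%, and in either experiment at 6 of 8, with Pax7 and Pax9 added, against 68.0%. Both shares are near the background. At Pax2, on the plus strand, only the higher-numbered end, opposite its first start, was marked. H3K9me3 was at 0 of 8, against 13.4%, and in either experiment at Pax2 alone, against 18.2%. An island anywhere over the gene body in both experiments was found for H3K4me3 at 1 of 8 (Pax5), against 62.6%, for H3K4me1 at 7 of 8 (all but Pax4), against 61.0%, for H3K27me3 at 6 of 8, against 24.2%, and for H3K9me3 at 0 of 8, against 16.1%. H3K4me3 and H3K27me3 at the same end, the combination called bivalent, was found at 0 of 8, against 5.74%. For so few genes, the counts of 0 for H3K9me3 and for this combination are near the background too. With 2 experiments per mark, an exact permutation test between marks cannot go below p = 0.3333, so values are given with their spread and no test.

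The same contrast ran through the surroundings of the genes. Over each gene and 100 kb around it, H3K27me3 covered a median of 69.5% of bases across the 8 Pax genes, against 11.6% across all genes (means of the experiments). The Pax genes ranged from 0% to 99.5%, and 6 of 8 lay above the median of all genes. H3K4me3 covered a median of 0.631%, against 3.99%, and 7 of 8 lay below. For H3K4me1 the medians were 7.92% and 11.04%, and for H3K9me3 1.34% and 1.69%. The Pax genes thus spread widely in H3K27me3 and lay on both sides of the median of all genes in H3K4me1 and H3K9me3.

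**Figure D1:**
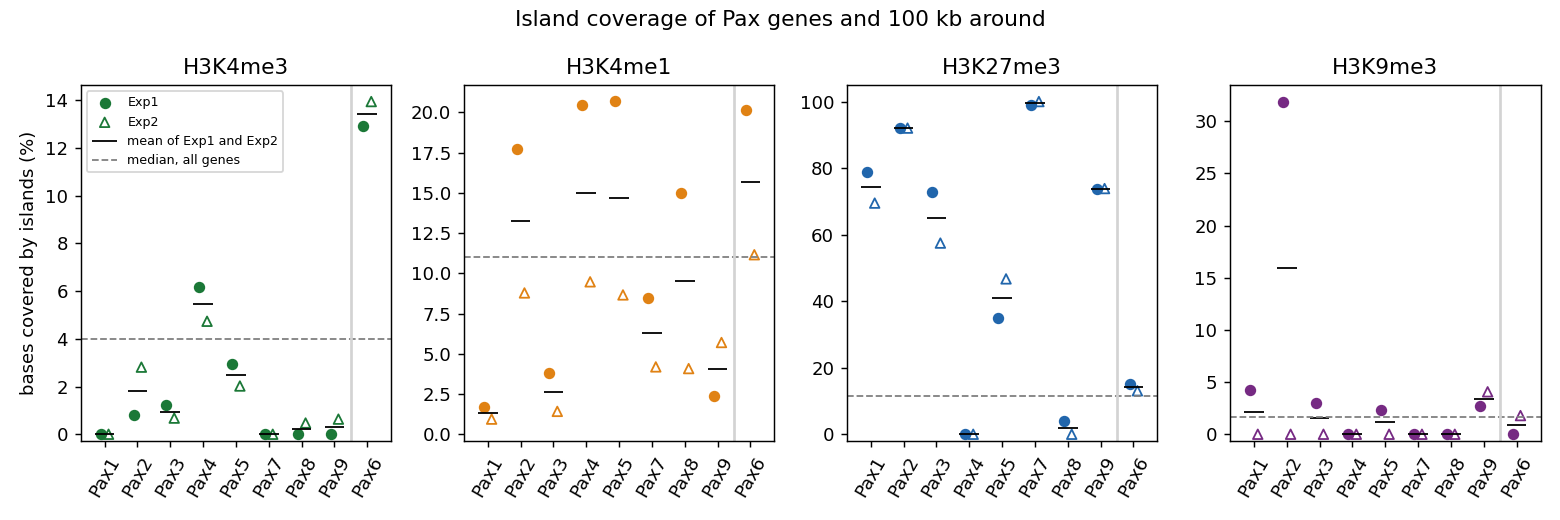
Percent of bases covered by islands over each Pax gene, with Pax6 set apart at the right, and 100 kb around, by mark (vertical axis, linear). Filled circles are Exp1, open triangles Exp2, short lines their mean, and dashed lines the median of all protein-coding genes for that mark. H3K27me3 reaches 92.0% at Pax2 and 99.5% at Pax7, and is 0% at Pax4.

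**Figure D2:**
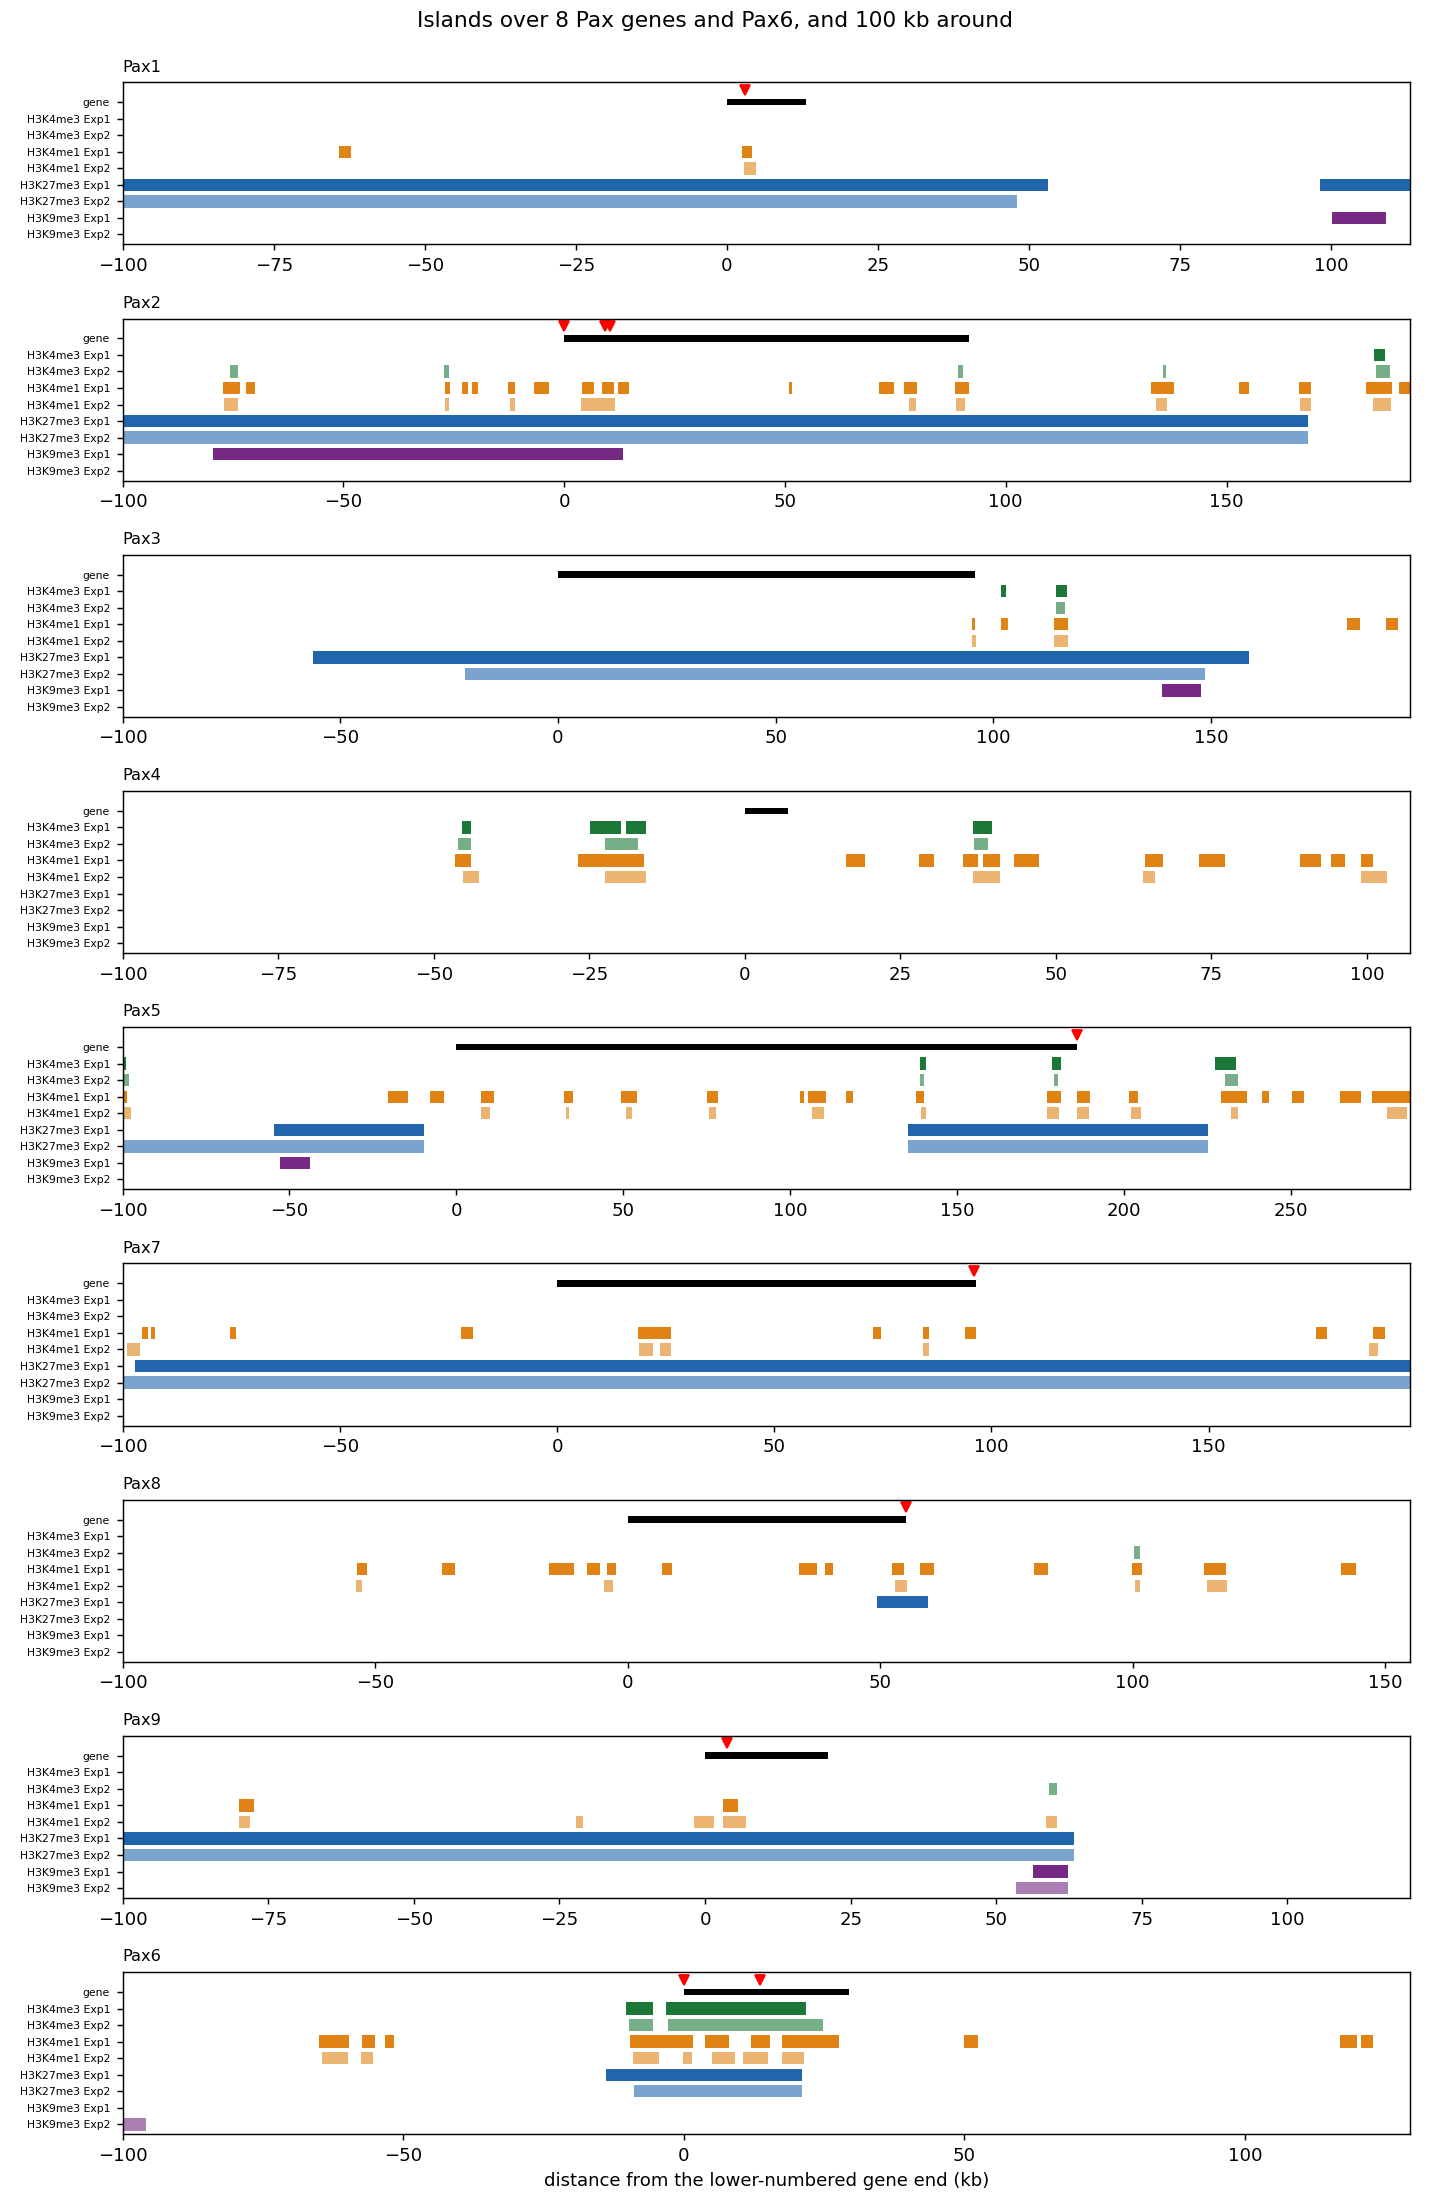
Islands of the 4 marks in both experiments over each Pax gene, with Pax6 at the bottom, and 100 kb around, with distance from the lower-numbered gene end in kb on the horizontal axis. Black bars are genes, red triangles transcription starts listed by RefSeq (none is shown for Pax3 and Pax4), and coloured bars islands cut at the edge of the window. No H3K4me3 bar meets an end or a listed start of a gene other than Pax6.

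Pax1 and Pax9, paralogues that act together in the sclerotome, from which vertebrae form, lay in wide H3K27me3 islands that also took in Nkx2 homeobox genes. Pax1 (chromosome 2, 147361930 to 147375049, mm10) was inside an island that was 335 kb wide in Exp1 and 330 kb in Exp2. Of all H3K27me3 islands, 3.76% in Exp1 and 6.07% in Exp2 were at least as wide. Both islands began at base 147080001 and held Nkx2-2 and Nkx2-4 as well, which encode homeodomain factors of the ventral neural tube. Pax9 (chromosome 12, 56691693 to 56712824) was inside an island of 405 kb with the same borders in both experiments, from 56350001 to 56755000, and 2.69% and 4.48% of islands were at least as wide. That island held Nkx2-1, a regulator of thyroid, lung and forebrain, and Nkx2-9. These neighbours, named after their values were seen, lay between 78.1 kb (Nkx2-9) and 276.5 kb (Nkx2-4) from the Pax gene. None of these 4 Nkx2 genes carried H3K4me3 at an end in both experiments, and all 4 carried H3K27me3 and H3K4me1. The same island held part of Slc25a21, which overlaps Pax9 in the gene table. Slc25a21 carried H3K4me3 at an end and H3K27me3 at an end in both experiments, but these need not be the same end. In Exp1 no H3K4me3 island lay within 100 kb of Pax9, so the H3K4me3 of Slc25a21 lay farther away. H3K27me3 covered 78.9% of Pax1 and 100 kb around in Exp1 and 69.5% in Exp2 (mean 74.2% ± 6.65, SD, n = 2). For Pax9 it covered 73.85% in each experiment. The nearest H3K4me3 island to an end of Pax1 lay 346.5 kb away in Exp1 and 182.7 kb in Exp2, and for Pax9 345.3 kb and 38.0 kb. The experiments put H3K4me3 at different distances from these genes, and the closest, near Pax9 in Exp2, had an authors' p-value of 0.00374.

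At the transcription starts of Pax1 and Pax9, narrow H3K4me1 islands lay within the H3K27me3. The RefSeq starts are 3.06 kb inside the annotated span of Pax1 and 3.78 kb inside that of Pax9, so windows at the gene ends do not reach them. At the Pax1 start the H3K4me1 island was 1.6 kb wide in Exp1 and 2 kb in Exp2, and at the Pax9 start 2.6 and 4 kb. In the authors' lists their p-values were 0.000139 and 1.18e-12 for Pax1, and 1.84e-37 and 1.64e-16 for Pax9. Counting those at the starts, 2 H3K4me1 islands in Exp1 and 1 in Exp2 lay within 100 kb of Pax1, and 2 and 5 within 100 kb of Pax9. One near Pax9 in Exp2 had an authors' p-value of 0.0732. All of them were wholly inside H3K27me3 islands of the same experiment. The promoter windows, from 250 bases before to 50 after the start, are shown because they carry H3K27me3 and H3K4me1 without H3K4me3. They come from RefSeq on GRCm38.p6, the build with the coordinates of mm10, and capitals mark each CG dinucleotide.
Pax1, chr2:147364744-147365043, plus strand: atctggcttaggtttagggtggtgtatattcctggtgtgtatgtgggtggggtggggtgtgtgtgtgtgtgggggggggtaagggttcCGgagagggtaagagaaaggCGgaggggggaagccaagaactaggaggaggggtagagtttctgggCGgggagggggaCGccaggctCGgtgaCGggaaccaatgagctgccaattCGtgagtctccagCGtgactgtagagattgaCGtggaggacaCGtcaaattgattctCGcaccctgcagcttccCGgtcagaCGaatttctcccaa
Pax9, chr12:56695221-56695520, plus strand: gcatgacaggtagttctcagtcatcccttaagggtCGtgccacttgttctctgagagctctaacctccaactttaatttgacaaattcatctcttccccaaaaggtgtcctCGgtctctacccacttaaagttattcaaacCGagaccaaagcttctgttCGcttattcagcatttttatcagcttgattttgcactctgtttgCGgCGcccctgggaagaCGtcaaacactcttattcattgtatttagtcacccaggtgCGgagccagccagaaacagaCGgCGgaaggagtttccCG
The Pax1 window holds 13 CG dinucleotides and the Pax9 window 11.

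Pax3 and Pax7, which specify neural crest, dorsal neural tube and muscle progenitors, were also wholly inside H3K27me3. Pax3 (chromosome 1, 78101267 to 78197136) lay in an island that spanned 215 kb in Exp1 and 170 kb in Exp2, and 7.94% and 19.1% of islands were at least as wide. Pax7 (chromosome 4, 139737059 to 139833530), the gene of muscle satellite cells, lay in islands of 320 and 435 kb, with 4.12% and 3.995% at least as wide. H3K27me3 covered 72.7% of Pax3 and 100 kb around in Exp1 and 57.5% in Exp2 (mean 65.1% ± 10.7, SD, n = 2), and 99.0% and 100% of Pax7 (mean 99.5% ± 0.702). Pax7 was the member with the widest cover in this window, and the window held no H3K4me3 island in either experiment. The nearest one lay 110.9 kb from a Pax7 end in Exp1 and 112.1 kb in Exp2.

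Pax3 differed in having H3K4me3 nearby, inside its H3K27me3 island. An H3K4me3 island, 2.4 kb wide in Exp1 and 2 kb in Exp2, lay 18.7 kb past the higher-numbered end, at Gm2102, a gene that carried H3K4me3 and H3K27me3 in both experiments. In Exp1 alone, another of 1.2 kb lay 5.87 kb past that end, at the lncRNA gene Gm33152. H3K4me1 marked the same end of Pax3 with an island 0.8 kb wide in Exp1 and 1 kb in Exp2. Pax3 had few H3K4me1 islands within 100 kb, 5 in Exp1 and 2 in Exp2. Pax7 had 10 and 5, all wholly inside H3K27me3, among them one of 7.6 kb within the gene in Exp1 at a place where Exp2 had islands of 3.2 and 2.6 kb. At the Pax7 start an H3K4me1 island of 2.6 kb was called in Exp1, and in Exp2 the nearest was 10.2 kb away.

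Pax2, Pax5 and Pax8, the trio that shares a structure with a shortened homeodomain, differed among themselves. Pax2 (chromosome 19, 44746601 to 44838269) lay in the widest H3K27me3 islands of the 8 genes, 510 kb in Exp1 and 460 kb in Exp2. Of all islands, 1.91% and 3.61% were at least as wide. Pax5 (chromosome 4, 44524748 to 44710694), which commits cells to the B lineage, had an island of 90 kb over its start, from 44660001 to 44750000 in both experiments, which covered 27.3% of the gene. Pax8 (chromosome 2, 24420551 to 24475599), which specifies thyroid follicular cells, had one of 10 kb over its start in Exp1 and none in Exp2, where the nearest lay 160.6 kb from the gene. A further Pax5 island, 45 kb wide in Exp1 and 165 kb in Exp2, lay 9.75 kb beyond the other end. With 100 kb around, coverage was 92.0% in each experiment for Pax2, 35.0% and 46.7% for Pax5 (mean 40.8% ± 8.29, SD, n = 2), and 3.92% and 0% for Pax8 (mean 1.96% ± 2.77). The order Pax2, Pax5, Pax8 held in each experiment, but each gene has only 2 values and the order was not tested. Among islands whose p-value did not exceed their list's median, the mean was 92.0% for Pax2, 23.3% for Pax5 and 0% for Pax8.

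The H3K27me3 island over Pax2 reached genes with H3K4me3. In both experiments it held Wnt8b, which encodes a Wnt ligand and had H3K27me3 without H3K4me3. It also held Sec31b, Ndufb8 and Hif1an, which carried both marks at an end. Their H3K27me3 calls come from this wide island, in which nearby enriched stretches are joined, and need not mean enrichment at each end. Hif1an, which encodes an oxygen sensor acting on HIF, lay 170.3 kb from Pax2. These neighbours were named after their values were seen. Pax2 also had 19 H3K4me1 islands within 100 kb in Exp1 and 9 in Exp2, of which 16 and 7 were wholly inside H3K27me3. All 9 of Exp2 overlapped an island of Exp1. Within the gene and 100 kb around, H3K4me3 was called once in Exp1 and 5 times in Exp2, and 1 island of each overlapped, 91.7 and 92.1 kb past the gene. Among the islands of Exp2 alone, 1 of 1.2 kb lay inside Pax2, 1.27 kb short of its higher-numbered end, at the noncoding gene 1700039E22Rik.

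RefSeq lists 3 starts for Pax2, and the inner ones carried H3K4me1. No H3K4me1 island came within 1 kb of the first start, from which the nearest was 3.40 kb away in Exp1 and 3.80 kb in Exp2. The other starts, 9.15 and 10.3 kb into the gene, lay under an island 2.6 kb wide in Exp1 and 7.6 kb in Exp2. H3K27me3 covered all 3 in both experiments, and H3K4me3 none. The windows of the first and last starts are shown because H3K4me1 told them apart.
Pax2, first start, chr19:44746351-44746650, plus strand: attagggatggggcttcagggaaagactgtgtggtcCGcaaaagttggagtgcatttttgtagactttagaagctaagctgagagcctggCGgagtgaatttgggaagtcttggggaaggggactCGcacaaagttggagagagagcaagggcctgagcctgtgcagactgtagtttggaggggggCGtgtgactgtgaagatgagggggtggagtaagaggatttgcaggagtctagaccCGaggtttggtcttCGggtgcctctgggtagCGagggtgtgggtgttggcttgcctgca
Pax2, last start, chr19:44756656-44756955, plus strand: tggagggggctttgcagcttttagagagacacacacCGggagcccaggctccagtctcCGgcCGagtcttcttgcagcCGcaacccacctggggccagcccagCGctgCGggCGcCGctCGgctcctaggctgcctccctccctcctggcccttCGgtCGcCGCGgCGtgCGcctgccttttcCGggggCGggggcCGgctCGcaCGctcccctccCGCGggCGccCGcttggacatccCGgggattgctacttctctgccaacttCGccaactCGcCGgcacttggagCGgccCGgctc
The first window holds 7 CG dinucleotides and the last 30.

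Pax5 was the member with H3K4me3 inside the gene in both experiments. One island, 1.8 kb wide in Exp1 and 1.2 kb in Exp2, lay 45.1 and 45.9 kb inside from the start, and another of 2.6 and 1.2 kb lay 4.89 and 5.69 kb inside, at the lncRNA gene 5730488B01Rik. Both lay within the H3K27me3 island of 90 kb, and neither reached the start. Of all H3K4me3 islands, 79.04% in Exp1 and 68.75% in Exp2 had an authors' p-value at or below that of the first. For the other, at 5730488B01Rik, these shares were 92.88% and 66.61%. H3K4me1 began 0.107 kb before the start in both experiments, with islands of 3.8 and 3.4 kb. Pax5 and Pax2 had the most H3K4me1 islands in Exp1, 19 each within 100 kb, and Pax5 the most in Exp2, with 12, all of which overlapped an island of Exp1. Only 5 of the Pax5 islands in each experiment were wholly inside H3K27me3. Past the start, 41.5 kb away in Exp1 and 44.5 kb in Exp2, H3K4me3 lay at Zcchc7, the neighbouring gene.

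Pax8 carried few islands of any mark but H3K4me1. Of 14 H3K4me1 islands within 100 kb in Exp1 and 5 in Exp2, all 5 of Exp2 overlapped an island of Exp1. The island at the start was 2.2 kb wide in both experiments. It ended 0.399 kb short of the start in Exp1 and covered it in Exp2. The nearest H3K4me3 lay 220.8 kb from a gene end in Exp1 and 45.2 kb in Exp2. Its start window is shown because, of the listed starts of these genes, it was the one not under H3K27me3 in both experiments.
Pax8, chr2:24475550-24475849, minus strand: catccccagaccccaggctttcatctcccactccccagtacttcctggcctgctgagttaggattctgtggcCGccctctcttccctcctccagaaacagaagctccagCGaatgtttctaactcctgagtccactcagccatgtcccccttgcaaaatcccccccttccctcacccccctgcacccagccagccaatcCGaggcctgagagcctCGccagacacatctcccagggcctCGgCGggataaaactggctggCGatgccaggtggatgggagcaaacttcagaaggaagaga
It holds 7 CG dinucleotides, as few as the first Pax2 window, which H3K27me3 did cover.

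Pax4 (chromosome 6, 28442334 to 28449340), which directs endocrine precursors of the pancreas to beta cells, had no island of any mark over its body in either experiment. H3K27me3 and H3K9me3 were also absent from 100 kb around it. The nearest H3K27me3 island lay 257.3 kb away in Exp1 and 935.7 kb in Exp2. H3K4me3 covered 6.18% of the gene and 100 kb around in Exp1 and 4.73% in Exp2 (mean 5.46% ± 1.02, SD, n = 2), the one value among the 8 genes above the median of all genes, 3.99%. These islands lay at neighbouring genes, Zfp800, Gcc1, Arf5 and Snd1, in both experiments, the nearest 15.9 kb from Pax4 in Exp1 and 17.1 kb in Exp2. Of 12 H3K4me1 islands nearby in Exp1 and 5 in Exp2, none touched Pax4, and the nearest lay 9.26 and 15.9 kb away. Pax4 was thus an unmarked gene among neighbours with H3K4me3.

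**Figure D3:**
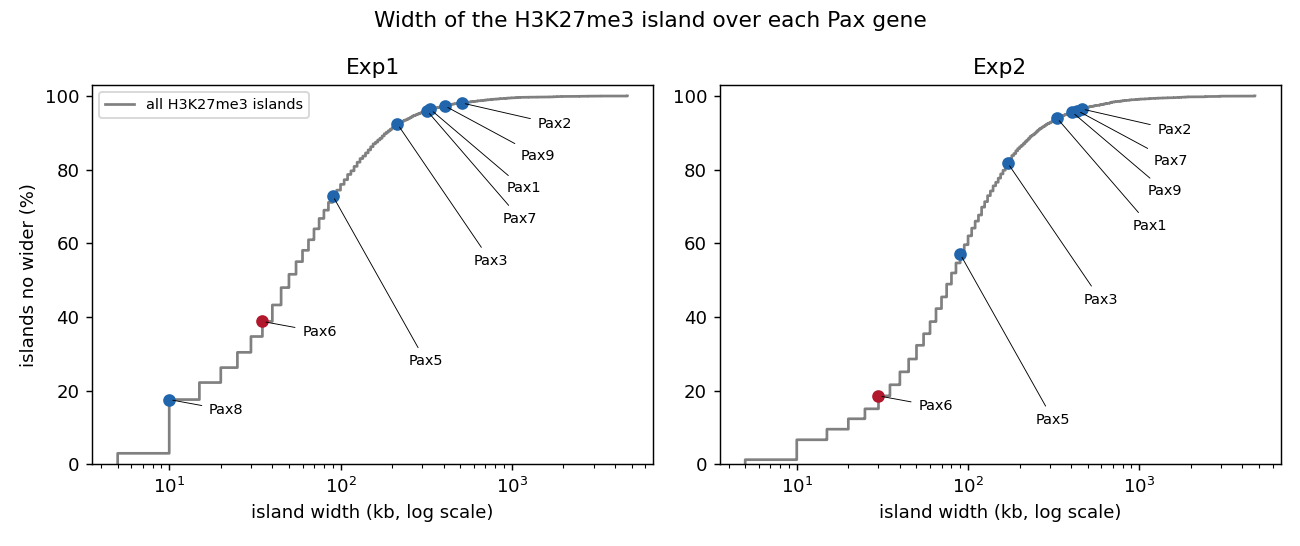
Share of H3K27me3 islands no wider than a given width (vertical axis, percent) against island width (horizontal axis, kb, log scale), in each experiment. The grey line is the whole list, blue points are the islands over Pax genes and the red point is that over Pax6. The islands over Pax1, Pax2, Pax7 and Pax9 are 320 kb or wider in both experiments, while that over Pax6 is 35 kb in Exp1 and 30 kb in Exp2.

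Pax6, which retinal neurons and glia of the adult use, is given for comparison. The 8 other genes had no H3K4me3 at an end, whereas Pax6 (chromosome 2, 105668896 to 105698410) had one island, 24.8 kb wide in Exp1 and 27.8 kb in Exp2. Only 0.215% and 0.0893% of H3K4me3 islands were at least as wide. H3K27me3 islands over the 6 marked Pax genes were 90 kb or wider, against 35 and 30 kb over Pax6, where they met H3K4me3 at the same end. Over the gene body, H3K4me3 covered at most 1.83% ± 0.76 of a Pax gene, at Pax5, and 79.0% ± 7.67 of Pax6 (SD, n = 2 each). H3K4me1 covered 0% to 19.2% of the 8 bodies and 57.3% ± 13.4 of Pax6. The difference between Pax6 and each of the others was not tested, since single genes offer 2 experiments each.

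Counted at listed transcription starts instead of gene ends, H3K4me1 was found at more of the Pax genes. Of the 8 genes, 6 have a start in the RefSeq table. H3K4me1 lay within 1 kb of a start in both experiments at 5 of the 6 (Pax1, Pax2, Pax5, Pax8 and Pax9), against 54.4% of the 17492 genes with a listed start. H3K27me3 was at 5 of the 6 (Pax1, Pax2, Pax5, Pax7 and Pax9), against 21.6%, and H3K4me3 at 0, against 60.2%. H3K9me3 was at 0, against 12.5%, and H3K4me3 with H3K27me3 at the same start at 0, against 5.41%, both near the background for 6 genes. At 4 genes, Pax1, Pax2, Pax5 and Pax9, H3K4me1 and H3K27me3 met at a start without H3K4me3, a state found at 1.67% of the genes with a listed start. Some of these H3K4me1 islands were weak. The share of the list with an authors' p-value at or below theirs was 97.73% in Exp1 and 42.23% in Exp2 for Pax1. It was 97.44% and 80.32% for Pax5, 39.43% and 14.69% for Pax2, and 24.67% and 29.47% for Pax9. The Pax5 island lay 0.107 kb from the start and did not cover it.

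The starts of the Pax genes held more CG dinucleotides than most starts in the same state. The motif counted was CG, which reads the same on both strands, and 95.4% of all listed starts of protein-coding genes hold at least 1 in the window of 300 bases. The 7 starts with H3K27me3 without H3K4me3 in both experiments held 7 to 30, the last Pax2 start the most and the first Pax2 start the fewest. Pax5 held 23 and Pax7 held 17. Across all 3121 starts in that state the median was 2 (quartiles 1 and 5). Without genes named Olfr or Vmn, which encode olfactory and vomeronasal receptors, a comparison added after the data were seen, the median was 3. Starts with H3K4me3 without H3K27me3 had a median of 22, and those with both marks 19. The 2 listed starts of Pax6 held 18 and 16. Of the starts with H3K27me3 without H3K4me3, 4.13% held as many as Pax5, 10.3% as many as Pax1 and 12.3% as many as Pax9. These counts describe the windows and were not tested.

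**Figure D4:**
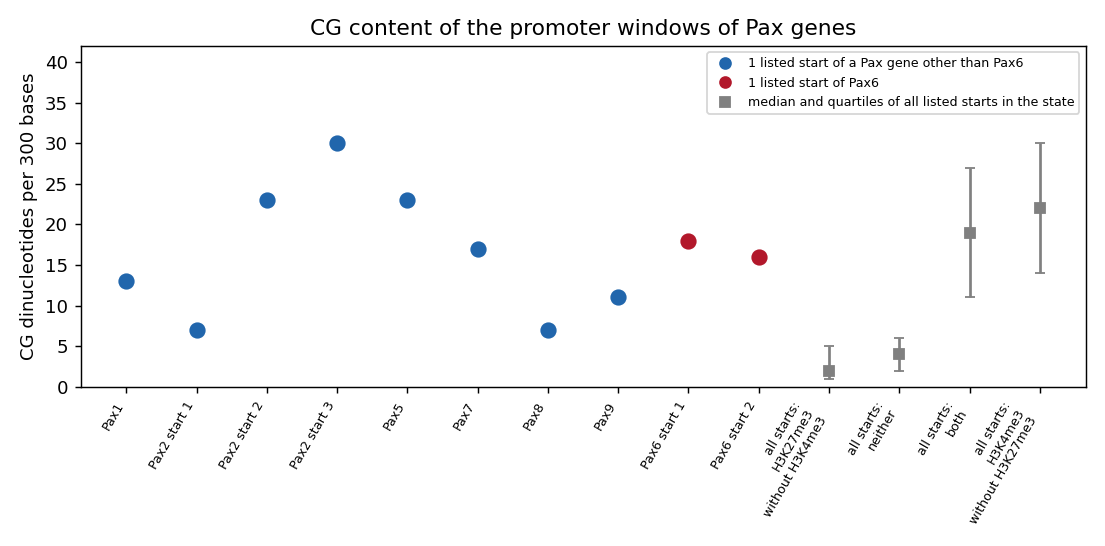
CG dinucleotides per window of 300 bases (vertical axis) at each listed start of the Pax genes (blue) and Pax6 (red). Grey squares with bars are the median and quartiles of all listed starts of protein-coding genes, by the marks within 1 kb of the start in both experiments. The last Pax2 start holds 30, against a median of 2 for all starts with H3K27me3 without H3K4me3.

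H3K9me3 islands near the Pax genes differed between the experiments. Exp1 had an island over the gene or within 100 kb for 5 of 8, against 54.2% of all genes, and Exp2 for 1 of 8, against 40.3%. The share in Exp1 is near the background. At Pax2 an island of 93 kb covered the first 14.6% of the gene and all 3 listed starts in Exp1, with an authors' p-value of 1.11e-09. In Exp2 the nearest lay 290.7 kb away. Near Pax9 both experiments had one, 6 kb wide in Exp1 and 9 kb in Exp2, 35.2 and 32.2 kb past the gene and inside its H3K27me3 island. The islands near Pax1, Pax3 and Pax5 were 9 kb wide each and were called in Exp1 alone. Around Pax4, Pax7 and Pax8 there was none in either experiment.

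Genes that work with Pax factors were then described by the same rule. In the Pax-Six-Eya-Dach network, which controls eye and sense organ formation, 11 of 13 genes carried H3K4me3, against 58.6% of all genes, and 5 carried H3K27me3, against 23.3%. Six3, Six5, Six6 and Eya1 had H3K4me3 without H3K27me3, Pax6 and Six4 were among 3 with both at the same end, and Six2 had H3K27me3 in both experiments at an end where H3K4me3 was not found in both, though each experiment had H3K4me3 at one of its ends. Among 10 partners of Pax1 and Pax9 in the sclerotome and pharynx, 8 carried H3K27me3 and 1 H3K4me3, beside the same shares of all genes. Nkx3-2, Meox1, Meox2 and Uncx, all homeobox genes of the somites, had H3K27me3 without H3K4me3, and Sox9, which Müller glia also use, had both.

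Partners of the other Pax genes stood as follows, beside 23.3% of all genes with H3K27me3, 16.6% with H3K27me3 without H3K4me3 and 24.8% with neither mark. Of 12 kidney, thyroid and ear genes that work with Pax2 and Pax8, 8 carried H3K27me3, among them Wt1, Lhx1, Gdnf and Foxe1, and the thyroid gene Tg carried neither mark. Gdnf and Foxe1 also had H3K4me3 in Exp2 alone. Of 10 optic stalk and astrocyte genes, 7 carried H3K27me3. Vax1 had it without H3K4me3, which was called in Exp2 alone, and Vax2, Nr2f1 and Nr2f2 had both marks, while 3, among them the astrocyte gene Gfap, had neither mark in both experiments. Of 10 pancreatic islet genes 6 carried H3K27me3, including Nkx6-1, Nkx2-2 and Pdx1, and Ins1, Ins2 and Gcg carried neither. Myogenic and neural crest genes had H3K27me3 at 6 of 12, including Myod1, Myog, Tfap2a and Foxd3, while Myf5, Myf6 and Msgn1 carried neither mark. Of 10 B cell genes that work with Pax5, 1 carried H3K27me3, Ebf1, which had both marks. Cd79a and Vpreb1 had H3K4me3 without H3K27me3, and 7 had neither mark in both experiments. Among these 7, Cd79b had H3K27me3 and Blnk H3K4me3 in Exp2 alone, and some others also had H3K27me3 in 1 experiment.

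The genes most like each Pax gene were found by their coverage by the 4 marks in both experiments, over the gene body and 10 kb around. Likeness was the distance across these 8 percentages, where a small value means alike. Among the nearest to Pax1 were Krt87 and Skor2, at distances of 1.18 and 1.25 percentage points. Among the nearest to Pax7 were Pdzk1ip1 and Srms, at 0.406 and 0.576. The median distance of all genes was 141.7 from Pax1 and 142.0 from Pax7, and these 4 genes had H3K27me3 without H3K4me3. Since likeness was measured on coverage by these marks, that shared state follows largely from the choice. Pax2, with its H3K9me3 in Exp1, had no gene so close, and the nearest, Mettl22, stood at 7.86 and carried H3K4me3 and H3K27me3 at the same end. Pax8 was nearest to Rnf217, Kirrel3 and Tusc3, at 5.05 to 6.25, all 3 with H3K4me3 without H3K27me3 at an end in both experiments. Within the family, Pax1 and Pax3 were the closest pair, at 6.04. These distances share the same 8 libraries and are given as a description.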

How the data were processed

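ChIP-seq libraries of 4 histone marks in 2 experiments gave 8 island lists. The 2 input samples were not analysed here. Per the labels' protocols, each immunoprecipitation took chromatin of 25000 cells, each library 500 pg of DNA, and reads were single-end and 50 bp long. Per the submitters' processing notes, the tools were BWA 0.7.5a, SICER, bedtools 2.17, SAMtools 1.3.1 and FastQC, on mm10. Enriched windows are joined over gaps by SICER, and neither its settings nor a control are named in the sources. The authors deposited positions and 1 p-value per island, and do not state whether it is adjusted. The smallest gap between islands was 800 bp for the H3K4 marks, 24000 bp for H3K9me3 and 35000 bp for H3K27me3, so nearby repressive islands are joined.

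In the lists, ends count from 0 and are included. Gene positions came from an NCBI RefSeq table of GRCm38.p6, without strand, and starts and strands from a RefSeq promoter table. Overlap of 1 bp or more counted. Python 3.11.15, NumPy 2.4.6 and pandas 2.3.3 were used, and overlaps were checked on simulated islands. Groups came from the sample titles, with the experiment number as replicate. No test was made, because the members are not replicates. Alternatives were windows of 2.5 kb or 500 bp, 50% of the window covered, islands of lower p-value, transcription starts, other flanks, 1 experiment, and calls in either one. The members, partner lists and rules were chosen with earlier results of these data known. All members, Pax6, up to 4 genes of a list's commonest state and 4 of other states in list order, and the 3 genes nearest each member were eligible to be named, as were genes within 100 kb sharing an island. Genes sharing an island from farther away (Nkx2-1, Nkx2-2, Nkx2-4, Wnt8b, Sec31b, Ndufb8 and Hif1an) were named outside this rule, after their values were seen. So were Zfp800, Gcc1, Arf5, Snd1 and Zcchc7, which lie within 100 kb of a member but share no H3K27me3 island with it. Some genes that these rules select are not reported here.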

Additional observations from a re-analysis of the deposited data

How the results depend on the processing

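Of the counts and medians recomputed under alternatives, 61 stayed within 1.5 times the count or within 1 SD of the experiments, and 9 did not. The SD is that of the medians of the 2 experiments, so the median of 1 experiment alone mostly stays within it. A mark that varies between experiments also passes large shifts, as H3K4me1 did from 7.92% to 3.41% among islands of lower p-value. The 61 include the counts of H3K4me3 with H3K27me3 at the same end, which were fixed at 0 by the lack of H3K4me3. At gene ends, H3K4me3 was at 0 of the 8 genes and H3K27me3 at 6 to 7 under the alternatives run. At listed starts, which 6 genes have, H3K4me3 was at 0 and H3K27me3 at 5. H3K4me1 at gene ends fell to 0 genes with 50% of the window covered and to 1 among islands whose p-value did not exceed their list's median. H3K9me3 was at 1 gene with a mark in either experiment. Leaving out 1 experiment gave H3K4me1 at 5 genes either way, H3K27me3 at 6 to 7 and H3K9me3 at 0 to 1, the 1 being Pax2 in Exp1.

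With the gene body alone, median coverage became 0% for H3K4me3 and 100% for H3K27me3, and with 50 kb around 90.8% for H3K27me3. Among islands whose p-value did not exceed their list's median, coverage became 0% for H3K4me3, 3.41% for H3K4me1 and 0% for H3K9me3, and stayed at 69.5% for H3K27me3. Among those with a p-value of at most 0.05 the 4 medians did not change. With 1 experiment the medians ran from 0.411% to 0.655% for H3K4me3, 4.94% to 11.7% for H3K4me1, 63.5% to 73.3% for H3K27me3 and 0% to 2.52% for H3K9me3. The cause of these shifts was not tested, beyond the smaller regions and lists that the alternatives use. Pairing the marks within each experiment, as a replicate block, again gave 0 genes where H3K27me3 met H3K4me3. This check could not have changed the count, since H3K4me3 was at an end of 0 of the 8 genes in either experiment. No read counts were used, so whether a missing island reflects depth is unknown. The median CG count of 2 became 3 without genes named Olfr or Vmn, an alternative chosen after seeing the data.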
